A study of Homo sapiens with 2 samples.

Results

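Genes of the BCL2 family, the caspases and their regulators were compared between ALDH+ and ALDH- cells of the ovarian cancer cell line RMG1. The members were the 46 gene names of a fixed list that matched the name of a gene probe on the arrays, out of 27193 gene names with a probe. Of the 46 genes, 37 had a measured probe, one well above background in ALDH+ or in ALDH- cells on each array, against 13704 of all gene names. Each of these 37 was in fact well above background in ALDH+ and in ALDH- cells alike, with either dye order. RMG1 is a clear cell adenocarcinoma line, and the ALDEFLUOR assay marks cells by the activity of aldehyde dehydrogenase (ALDH), an enzyme activity that has been used to enrich cancer stem-like cells. The positive group was ALDEFLUOR-positive RMG1 cells and the control group was ALDEFLUOR-negative RMG1 cells, both grown in DMEM/F12 with fetal bovine serum and without any further treatment in the sample labels. The same pair of RNA extracts was hybridized to 2 two-color arrays on 1 slide. ALDH+ cells carried Cy5 on one of them, called the Cy5 array here, and Cy3 on the other, called the Cy3 array. Each population was therefore 1 sample, no test could be made between ALDH+ and ALDH- cells, and every SD below is the technical SD of the 2 arrays. The labels and the results section of the study name RMG1 as the source of the RNA, whereas its methods name another ovarian line, AMOC2.

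Apoptosis runs along an intrinsic and an extrinsic route. In the intrinsic route, BH3-only proteins sense stress and act on the antiapoptotic BCL2 proteins and on the effectors BAX and BAK1, which open the outer mitochondrial membrane. Cytochrome c then assembles APAF1 and caspase-9 into the apoptosome, while DIABLO and HTRA2 leave the mitochondrion and relieve the block that inhibitor of apoptosis (IAP) proteins put on caspases. In the extrinsic route, death receptors such as FAS recruit FADD and caspase-8, and CFLAR competes with caspase-8 for that complex. Ovarian clear cell carcinoma is known for its poor response to platinum drugs, which kill cells largely through these routes.

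The probes behind the main values were oligonucleotides of 60 bases, written in the direction of the transcript, and the first 30 bases are given for those on which the account below turns. They are the probe of BCL2, the one member past 1.5-fold, the stretch of FAS that its 2 measured probes share, and the 2 probes of CASP10, which gave ratios of opposite sign. Coordinates are those of the array design on hg19. All bases are in lower case, since no base within them was singled out.
BCL2, NM_000633: tggctgatattctgcaacactgtacacata
FAS, both probes: atgtctatccacaggctaaccccactctat
CASP10, brighter probe: gagaacaatcccctttgactgtaatttccc
CASP10, dimmer probe: ccttggggcgtggaagggcattaggagtgt

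The BCL2 probe annotated to the transcript NM_000633 lies on the minus strand at chr18:60790723-60790782. The FAS stretch begins the probe at chr10:90774545-90774604 on the plus strand, which overlaps by 32 bases the other measured probe at chr10:90774517-90774576. Both CASP10 probes are on the plus strand and annotated to NM_032977, the brighter at chr2:202086244-202086303 and the dimmer at chr2:202084646-202084705.

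Differences among the apoptosis genes were small. None of the 37 measured genes passed 1.5-fold higher in ALDH+ cells, a size that 1.5% of all 13704 genes passed, and 1, BCL2, passed 1.5-fold lower, against 4.6% of all genes. No member passed 2-fold in either direction, against 0.919% of all genes. The study screened at this fold for genes higher in ALDH+ cells only. In the log ratio of the array software, FAS did pass it, at 2.24-fold higher. The median log2 ratio of ALDH+ to ALDH- cells was 0.03 over the members and 0.00 over all genes. From array to array, the ratio of the members had the same sign on both arrays in 18 genes higher in ALDH+ cells (48.6%) and in 16 genes lower (43.2%), whereas 33.6% of all genes were higher on both arrays and 36.2% were lower on both. Only 3 members changed sign between the arrays, against 30.2% of all genes. The mean exceeded its technical SD for 28 of 37 members and for 60.9% of all genes, and the median technical SD of the members was 0.12 on the log2 scale. As the RNA was pooled from many sorted cells, a different share of cells that express a gene and a different amount of RNA per cell cannot be told apart.

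**Figure D1:**
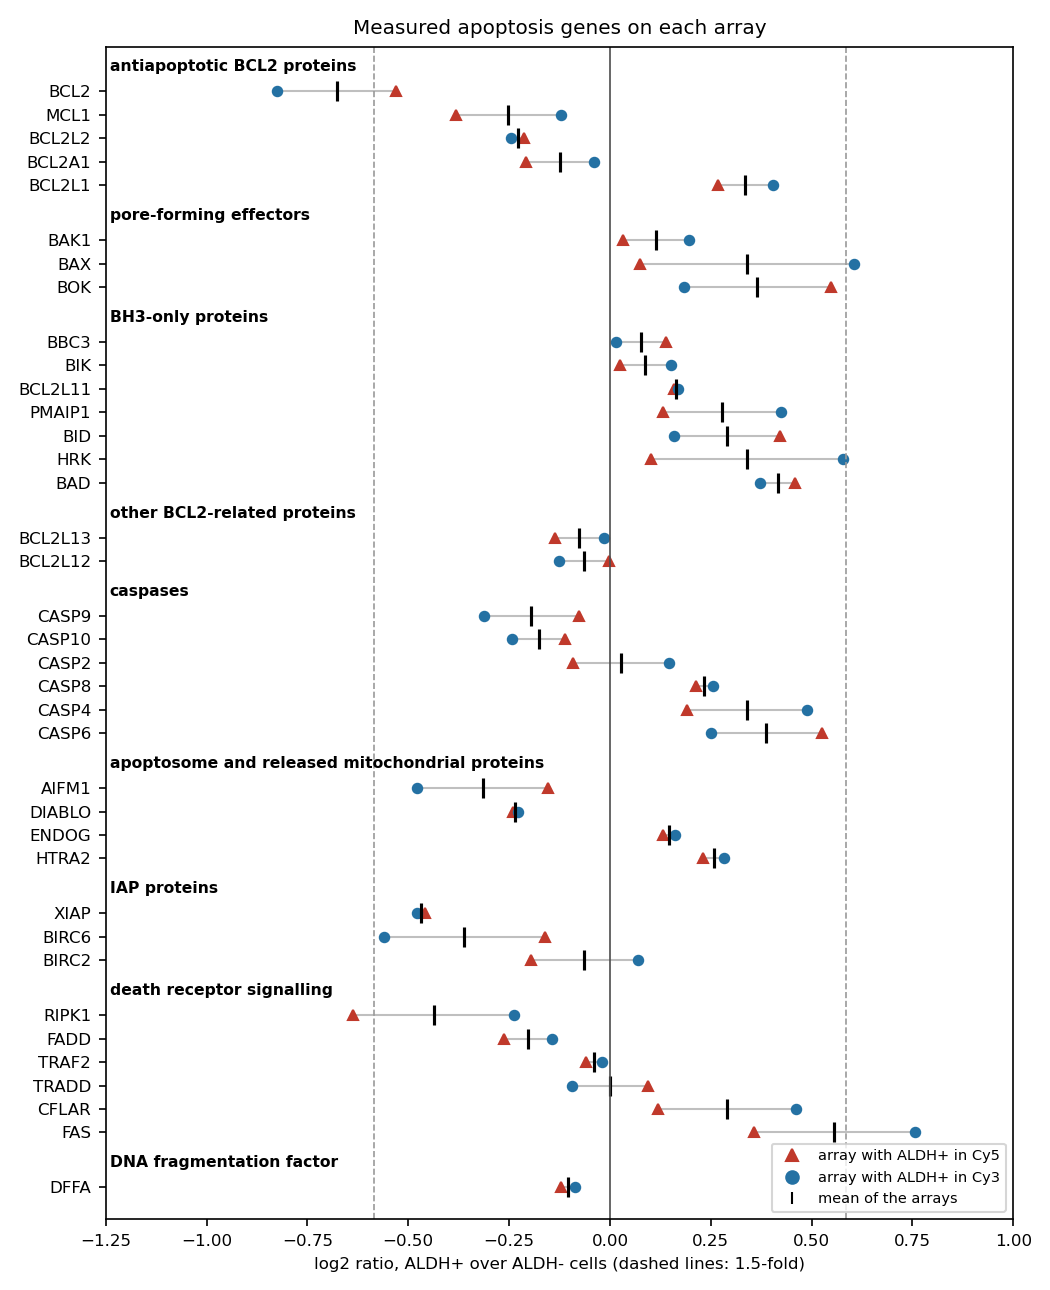
Log2 ratio of ALDH+ to ALDH- cells (x axis) for the 37 measured apoptosis genes, grouped by role (y axis); triangles are the Cy5 array, circles the Cy3 array, black bars their mean, and dashed lines 1.5-fold. The BCL2 mean alone lies beyond a dashed line, all 3 effectors and all 7 BH3-only genes lie to the right of 0 on both arrays, and 4 of 5 antiapoptotic genes lie to the left.

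Among the antiapoptotic BCL2 proteins, which bind and restrain BAX, BAK1 and the BH3-only proteins, 4 of 5 measured genes were lower in ALDH+ cells on both arrays and 1 was higher. BCL2, the founding member of the family, stood lowest of all members. After normalization its signal was 564 in ALDH+ and 814 in ALDH- cells on the Cy5 array and 488 and 866 on the Cy3 array, in arbitrary units that include an offset of 50. ALDH- cells thus gave the higher signal with either dye order. The log2 ratio was -0.53 on the Cy5 array and -0.83 on the Cy3 array, with a mean of -0.68 ± 0.21 (SD, 2 arrays), or 1.60-fold lower in ALDH+ cells. The probe is printed in 10 spots, of which 10 and 6 were kept, and these had an SD of 0.06 and 0.08 within the arrays. The difference between the arrays was therefore larger than the scatter of the spots.

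The other antiapoptotic genes differed less and not all one way. MCL1, a short-lived protein on which many tumor cells depend, had signals of 662 in ALDH+ and 863 in ALDH- cells on the Cy5 array and of 658 and 716 on the Cy3 array. Its log2 ratio of -0.25 ± 0.18 was 1.19-fold lower in ALDH+ cells. BCL2L2, which encodes BCL-w, gave -0.21 and -0.25, so the arrays differed by little and the mean was -0.23 ± 0.02. BCL2A1, known as a target of NF-kB, gave -0.12 ± 0.12, a mean about as large as its SD. Its other probe, annotated to the same transcript, was not well above background on any array in either population. BCL2L1, which encodes BCL-xL, went the other way. Its signals were 401 in ALDH+ and 333 in ALDH- cells on the Cy5 array and 387 and 293 on the Cy3 array. The mean log2 ratio of BCL2L1 was 0.34 ± 0.10, or 1.26-fold higher in ALDH+ cells, and its 10 spots had an SD of 0.06 and 0.05 within the arrays. The median of the 5 genes was -0.23 on the log2 scale and -0.12 on the Cy3 array alone, and BCL2L10 had no probe well above background.

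All 3 pore-forming effectors and all 7 measured BH3-only genes were higher in ALDH+ cells on both arrays, by amounts that stayed below 1.5-fold in the mean. The effectors had a median log2 ratio of 0.34, against 0.08 on the Cy5 array alone and 0.20 on the Cy3 array alone. BAX, which moves to the mitochondrion when activated, had signals of 2061 in ALDH+ and 1957 in ALDH- cells on the Cy5 array and of 2603 and 1710 on the Cy3 array. The arrays were far apart for BAX, with log2 ratios of 0.08 and 0.61 and a mean of 0.34 ± 0.38, although the SD of its 10 spots was 0.04 and 0.05 within the arrays. A dimmer BAX probe gave 0.17 and 0.21, with a mean of 0.19 ± 0.02. BOK, the effector that is kept low by degradation, had log2 ratios of 0.55 and 0.18 with a mean of 0.37 ± 0.26, or 1.29-fold higher. BAK1, which resides in the mitochondrial membrane, gave 0.11 ± 0.12.

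The BH3-only genes ranged from 0.08 to 0.42 on the log2 scale, with a median of 0.28 that was 0.14 on the Cy5 array alone and 0.17 on the Cy3 array alone, and BMF had no probe well above background. BAD, which binds BCL2 and BCL-xL and is silenced by survival kinases, was the highest. Its signals were 1313 in ALDH+ and 955 in ALDH- cells on the Cy5 array and 1215 and 938 on the Cy3 array, a log2 ratio of 0.42 ± 0.06 or 1.33-fold higher. HRK, a BH3-only protein best known from neurons, gave 0.34 ± 0.34 at a dim signal of 89.4 to 133, so its mean and the SD of the arrays were about the same size. BID, which caspase-8 cleaves to link the extrinsic to the intrinsic route, gave 0.29 ± 0.19, and its second probe gave 0.31 ± 0.17. PMAIP1 (NOXA), a p53 target that binds MCL1, gave 0.28 ± 0.21. BCL2L11 (BIM), induced by loss of growth factors, gave 0.16 ± 0.01, and its 2 other measured probes gave 0.16 and 0.03. BIK gave 0.09 ± 0.09 and BBC3 (PUMA), the other well-known p53 target of the group, gave 0.08 ± 0.09, both within the SD of the arrays. Each of the 10 effector and BH3-only genes was higher in ALDH+ cells under all 12 alternatives of processing that were tried. Several of these alternatives could not count against that. Either array alone repeats the statement that the genes were higher on both arrays. Changes of the filter on dim probes left these values as they were, and the joined table repeated the ratio of the software. Median centring in place of loess raised each of the 10 values. The roles of the members were known when the values were read, so this order of the groups is a description.

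**Figure D2:**
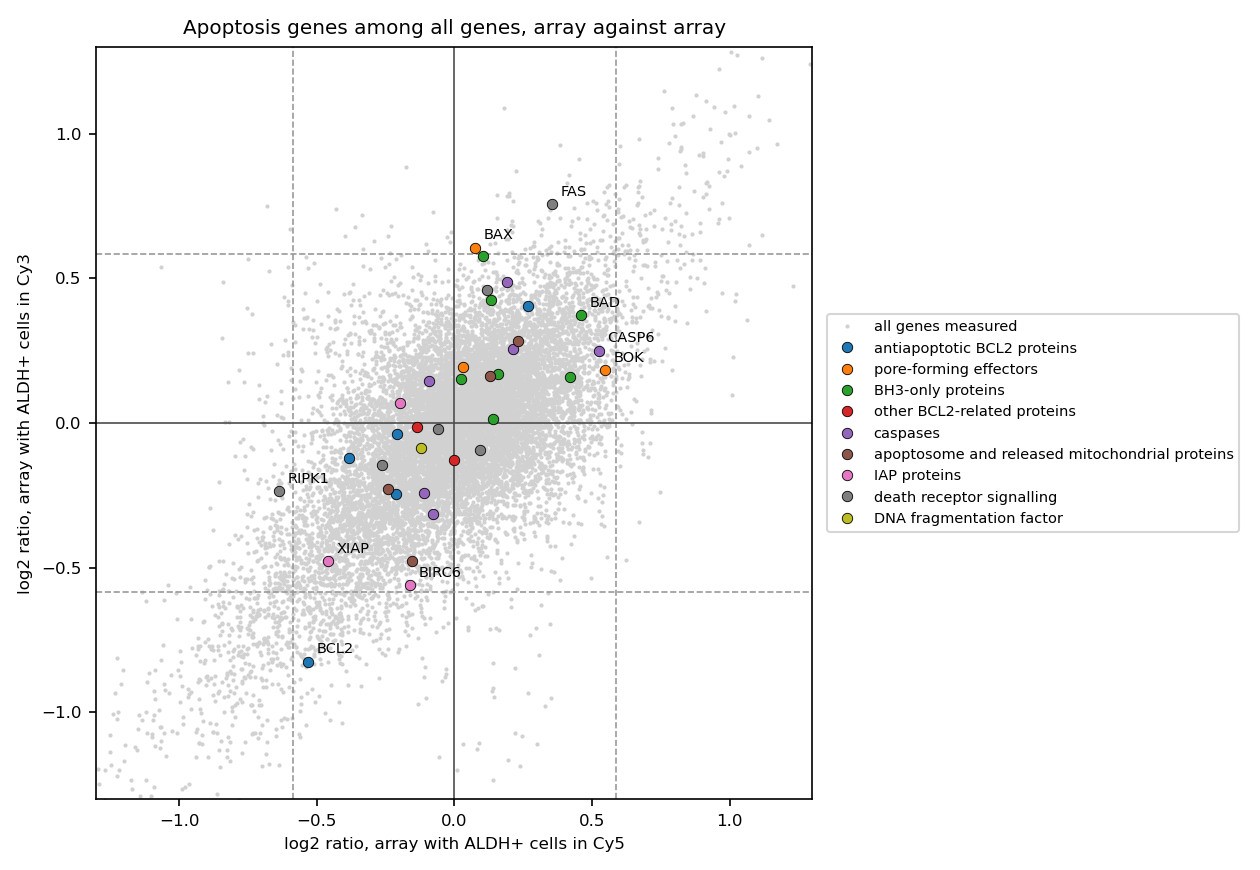
Log2 ratio on the Cy5 array (x axis) against that on the Cy3 array (y axis); gray points are all genes measured, colored points the 37 apoptosis genes by role, and dashed lines 1.5-fold on either array. The axes end at 1.3, which leaves out 49 genes; the colored points lie within the main cloud, with BCL2 at the lower left and FAS at the upper right.

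The 2 other BCL2-related genes were close to 0. BCL2L13, a mitochondrial receptor for autophagy, gave -0.08 ± 0.09 and BCL2L12, reported to bind caspases and p53, gave -0.06 ± 0.09. The 2 probes of BCL2L12 were on opposite sides of 0, with means of -0.06 at the brighter probe and 0.16 ± 0.10 at the dimmer. With median centring, BCL2L12 was at 0.23, so no direction is given for it.

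Caspases were divided. CASP6, an executioner that cleaves lamins, had signals of 760 in ALDH+ and 528 in ALDH- cells on the Cy5 array and of 588 and 494 on the Cy3 array. Its log2 ratio of 0.39 ± 0.19 was 1.31-fold higher in ALDH+ cells. CASP4, an inflammatory caspase that binds bacterial lipopolysaccharide, gave 0.19 and 0.49, with a mean of 0.34 ± 0.21. CASP8, the initiator recruited to death receptors, gave 0.21 and 0.25, with a mean of 0.23 ± 0.03 at a dim signal of 124 to 155. CASP2, an initiator that is activated on the PIDDosome, gave 0.03 ± 0.17, with the arrays on opposite sides of 0. On the lower side, CASP9, the initiator of the apoptosome, gave -0.08 and -0.31, with a mean of -0.20 ± 0.17.

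CASP10, the close relative of CASP8 at death receptors, had no settled direction. Its brighter probe had signals of 1680.2 in ALDH+ and 1815 in ALDH- cells on the Cy5 array and of 1554 and 1837 on the Cy3 array, a log2 ratio of -0.18 ± 0.09. The dimmer probe, which lies upstream and is annotated to the same transcript, gave 0.21 on each array. The 2 probes were 0.39 apart, the widest gap between probes of any member and larger than the SD of either probe, and their mean was 0.02. The median of the 6 measured caspases was 0.13 on the log2 scale, against 0.06 on the Cy5 array alone and 0.20 on the Cy3 array alone. CASP1, which processes interleukin-1 beta, had no probe well above background.

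Downstream of the mitochondrion, HTRA2, a serine protease that binds IAP proteins, was higher in ALDH+ cells, at 0.26 ± 0.04, and so was ENDOG, a mitochondrial endonuclease, at 0.15 ± 0.02. AIFM1, a flavoprotein needed for respiration that can enter the nucleus during cell death, gave -0.15 and -0.48, with a mean of -0.32 ± 0.23, or 1.24-fold lower. DIABLO (SMAC), which binds XIAP, gave -0.23 ± 0.01 at its brighter probe and 0.00 ± 0.08 at the other, and the brighter probe was at 0.20 with median centring. The difference in DIABLO thus rested on the probe and on the normalization. Of the nuclease that cuts DNA between nucleosomes, the inhibitor and chaperone subunit DFFA was at -0.10 ± 0.02, and the nuclease subunit DFFB was not measured, with raw signals of at most 169 on any array. APAF1, the scaffold of the apoptosome, was not measured either.

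The 3 measured IAP genes had a median log2 ratio of -0.36, which was -0.20 on the Cy5 array alone and -0.48 on the Cy3 array alone. XIAP, the IAP that inhibits caspases directly, had nearly the same values on both arrays. Its signals were 520 in ALDH+ and 714 in ALDH- cells on the Cy5 array and 507 and 706 on the Cy3 array, a log2 ratio of -0.47 ± 0.01 or 1.38-fold lower in ALDH+ cells. A second XIAP probe, which was well above background on 1 of 2 arrays in ALDH+ cells, gave -0.29 ± 0.16. BIRC6, a very large ubiquitin ligase, gave -0.16 and -0.56, with a mean of -0.36 ± 0.28, or 1.28-fold lower. BIRC2 (cIAP1), a ubiquitin ligase of TNF receptor complexes, gave -0.20 and 0.07, so the arrays did not share a sign and it was at 0.01 with median centring. BIRC7 (livin) had no probe well above background in both populations, with 1 array of 2 in each. Measured IAP genes outside the members were not all lower. BIRC5 gave 0.28 and 0.44, with a mean of 0.36 ± 0.12. BIRC3 gave 0.07 ± 0.14 and NAIP gave -0.14 ± 0.34, each with the arrays on opposite sides of 0.

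Death receptor genes held the highest member and one of the lowest. FAS, the receptor of FAS ligand, had signals of 189 in ALDH+ and 147 in ALDH- cells on the Cy5 array and of 184 and 109 on the Cy3 array, which is dim, since 50 of these units are the offset. ALDH+ cells gave the higher signal with either dye order. The log2 ratio was 0.36 and 0.76, with a mean of 0.56 ± 0.28, or 1.47-fold higher in ALDH+ cells and just under the 1.5-fold limit. Its 10 spots, of which 10 and 7 were kept, had an SD of 0.17 and 0.10 within the arrays, the widest on either array among the 6 measured members printed this way. The overlapping FAS probe gave 0.37 ± 0.15 and is no independent reading of the gene, as it shares the stretch printed above. The value of FAS depended on the processing. It was 0.45 without background correction, 0.58 with plain subtraction of the local background and 0.56 with background from negative control spots. With an offset of 10 it was 0.77, and in the log ratio of the array software it was 1.16, or 2.24-fold. RIPK1, the kinase that turns a TNF receptor signal to survival or death, had signals of 278 in ALDH+ and 432 in ALDH- cells on the Cy5 array and of 295 and 347 on the Cy3 array. Its log2 ratio of -0.44 ± 0.28 was 1.35-fold lower in ALDH+ cells.

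**Figure D3:**
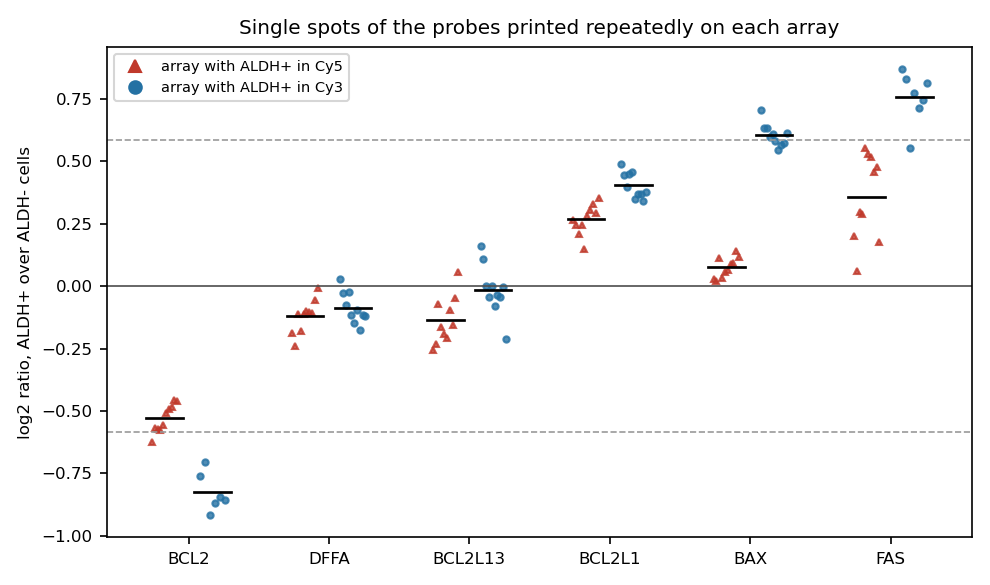
Log2 ratio of each single spot (y axis) for the 6 measured members whose probe is printed in 10 spots per array (x axis); triangles are the Cy5 array, circles the Cy3 array, short bars their means, and dashed lines 1.5-fold. The spots of BAX and BCL2 form separate groups by array, around 0.08 and 0.61 for BAX and around -0.53 and -0.83 for BCL2, and those of FAS scatter the most within the Cy5 array.

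The adaptors were close to 0 or slightly lower. FADD, the adaptor that joins death receptors to caspase-8, gave -0.20 ± 0.08, which shrank to -0.02 with median centring. TRADD, the adaptor of TNF receptor 1, had a mean of 0.00 ± 0.13, and TRAF2, a ubiquitin ligase of the same complex, gave -0.04 ± 0.03 and 0.11 with median centring. CFLAR (FLIP), the catalytically inactive relative of caspase-8, gave 0.29 ± 0.24 at the probe annotated to NM_001127184 and -0.02 ± 0.10 at the dimmer one annotated to NM_003879. FASLG, RIPK3 and TRAF1 had no probe well above background on any array in either population. The raw signals of FASLG on the Cy5 array were 46.7 in ALDH+ cells and 147 in ALDH- cells, against medians of 45.1 and 135 for the negative control spots in the same dyes. This is the level of empty spots, and the gap between the 2 values is that of the dyes.

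Reading a gene through its other probes gave the same side of 0 for 7 of the 11 members compared in this way. FAS is among these 7 although its probes overlap, and the share over all genes with several probes was not taken. BCL2L12, CASP10 and CFLAR had probes on both sides, and DIABLO had one on the lower side and one at 0.00. BAX and BID held their direction at each measured probe, and so did FAS and XIAP. The second FAS probe, however, was measured only through ALDH+ cells and the second XIAP probe only through ALDH- cells. In each case that is the population where the gene was higher, so the side of 0 at these probes is tied to the filter and adds nothing to the direction.

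**Figure D4:**
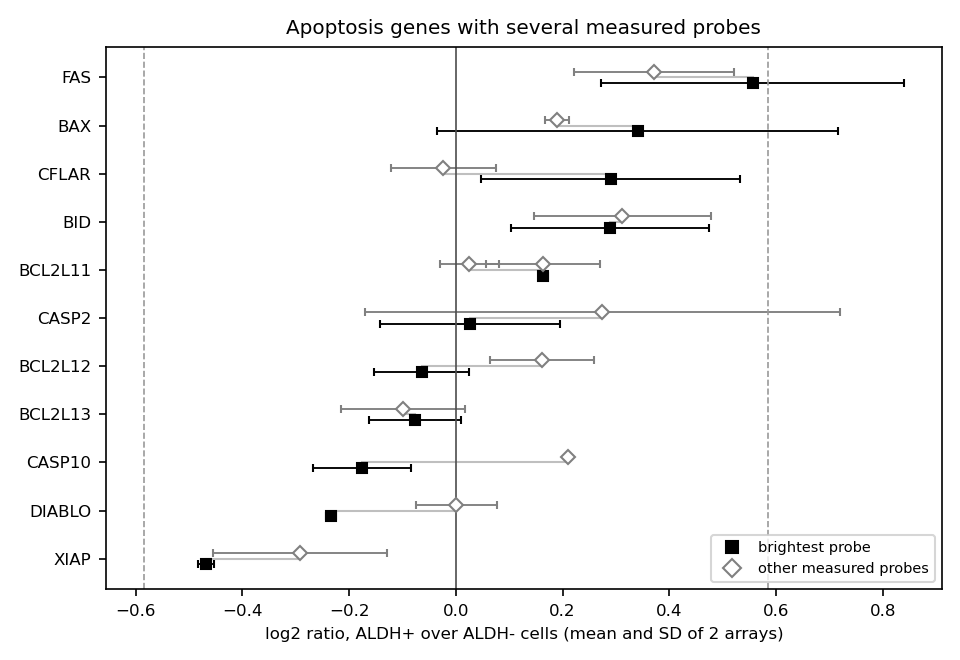
Log2 ratio of ALDH+ to ALDH- cells (x axis, mean with bars for the SD of 2 arrays) for every measured probe of the 11 apoptosis genes compared between probes (y axis); black squares are the brightest probe, which represents the gene, open diamonds the others, and dashed lines 1.5-fold. Both XIAP probes lie left of 0 and both FAS probes right of it, whereas those of CASP10 lie at -0.18 and 0.21.

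Only 5 members passed 1.5-fold on either side under any of the alternatives of processing, some of which also moved the share of all genes that passed. That share was 4.09% higher and 9.17% lower in the ratio of the software, and 2.24% and 6.07% with an offset of 10. BCL2 did so under every alternative except the Cy5 array alone, where it was at -0.53. FAS passed with an offset of 10, with median centring, in the ratio of the software and on the Cy3 array alone. HRK and RIPK1 passed in the ratio of the software, at 0.68 and -0.62, RIPK1 also on the Cy5 array alone, and BAX on the Cy3 array alone. Of the 37 genes, 18 were higher in ALDH+ cells and 12 were lower under all alternatives. The remaining 7, BCL2L12, BIRC2, CASP2, CASP10, DIABLO, TRADD and TRAF2, took either sign. The 18 are the same genes that were higher on both arrays, as 33.6% of all genes were. The share of all genes that kept a sign under all alternatives was not taken, so these counts do not set the members apart. Some alternatives, such as changes of the filter on dim probes, left the value of every member as it was.

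**Figure D5:**
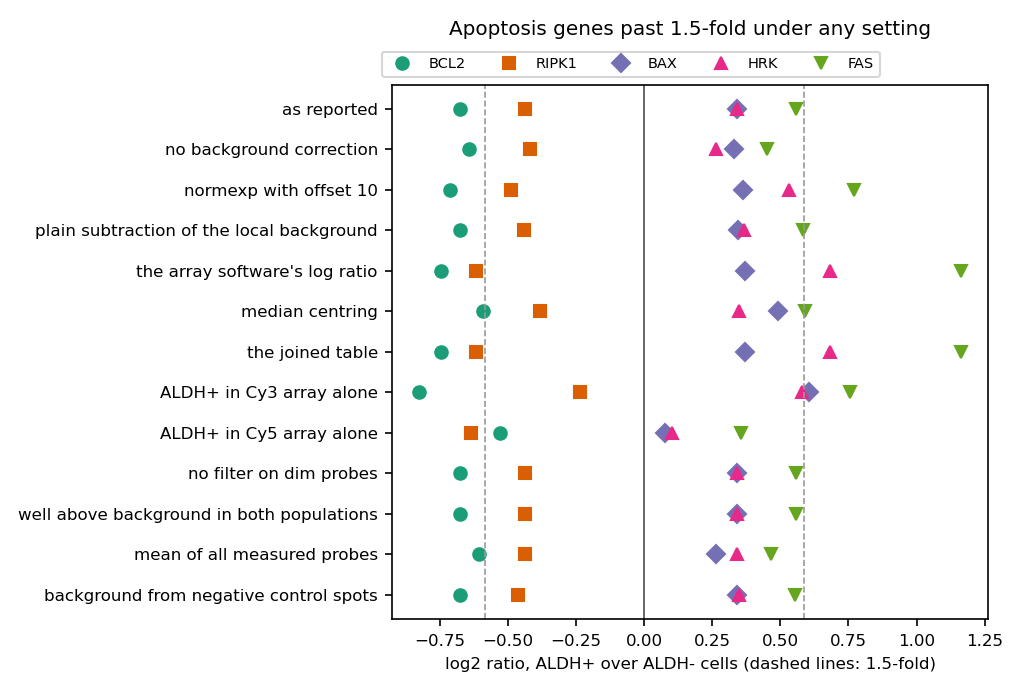
Log2 ratio of ALDH+ to ALDH- cells (x axis) under each setting of the processing (y axis) for the 5 apoptosis genes that passed 1.5-fold, marked by dashed lines, under any of them. FAS spans 0.36 to 1.16 and BCL2 spans -0.83 to -0.53; no gene crosses 0.

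Probes of the members differed in base composition, which moved with the ratio to some degree. The probes of the 18 genes higher on both arrays had a median GC content of 44.2% and those of the 16 genes lower on both arrays one of 38.3%, against 43.3% over all genes. Across the 37 members, which share both arrays, Spearman's rho of GC content and log2 ratio was 0.36, and it was 0.12 across all genes. Gene length had a rho of -0.08 with the ratio over 36 members and of -0.17 over 11513 genes. The part of base composition in the member ratios was not tested.

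Around the members, 88 other names of apoptosis genes were listed from 4 groups, and 71 of them were measured. Their median log2 ratio was 0.00, and 3 of the 71 passed 1.5-fold higher and 2 lower, against 1.5% and 4.6% of all genes. TNF, the cytokine that signals through TNF receptor 1, was the highest, with log2 ratios of 1.12 and 1.26 and a mean of 1.19 ± 0.10, or 2.28-fold higher in ALDH+ cells. BAG1, a cochaperone that binds BCL2, gave 0.68 ± 0.19, and its 2 other probes gave 0.70 and 0.82. VDAC2, a channel of the outer mitochondrial membrane that binds BAK1, gave 0.64 ± 0.18 and 0.61 ± 0.21 at its 2 probes. TNFRSF25 (DR3), a death receptor, gave -1.01 ± 0.04, or 2.02-fold lower in ALDH+ cells. TNFRSF10D, a decoy receptor of TRAIL that lacks a working death domain, gave -0.74 ± 0.15, or 1.67-fold lower. The largest differences in the death receptor pathway lay in genes outside the 46 members, in a ligand and in 2 receptors, while the other caspase, IAP and death effector genes of the lists had none past 1.5-fold.

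As a check that the cells were epithelial, 8 of 8 epithelial markers were measured, with EPCAM, keratins and CDH1 among them. Without an array known to be of AMOC2, these markers do not tell RMG1 from that line. Of the markers of other cells, 3 of 8 leukocyte, 0 of 6 fibroblast and 1 of 4 endothelial genes with a probe were measured. Summed raw signals were 874 and 1409 for the leukocyte list in ALDH+ cells on the 2 arrays, against 297478 and 129463 for the epithelial list. In ALDH- cells the leukocyte list summed to 1375 and 770. These raw sums include the background of the dyes. Single negative control spots had median signals of 45.1 and 127 in ALDH+ cells and of 135 and 43.1 in ALDH- cells on the same arrays. Of the ALDH genes of the sort, ALDH1A3 was 1.52-fold higher in ALDH+ cells, ALDH1A2 was at 0.20 ± 0.23 on the log2 scale, and ALDH1A1 had no probe well above background.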

How the data were processed

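The RNA of sorted RMG1 cells, ALDH+ against ALDH-, was hybridized to 2 two-color arrays with exchanged dyes, which count as 1 replicate. The authors deposited the spot and local background intensity of each array as read by Feature Extraction 10.7.3.1 (the labels name 8.5.1.1), with no normalization. They also deposited the log10 ratio of that software, and a table joining both arrays' log10 ratios, whose 4 further signal columns were not used. Signals were corrected in limma 3.58.1 (R 4.3.3) by normexp with an offset of 50, which compresses the ratios of dim probes, and normalized by loess within each array, control spots at weight 0. Outlier spots (531 and 519) were left out and the spots of a probe averaged. A probe was taken as measured when, in ALDH+ or in ALDH- cells, more than 50% of its spots on each array were well above background, and the brightest measured probe stood for a gene. Of 70 member probes, 50 were measured, none was saturated, and 67 had a transcript in the RefSeq table, all under the same symbol. The result of 1 further probe is not reported here. Groups without 3 measured members got no median. Every measured member is given with its value, in full where it passed 1.5-fold, had probes of opposite sign or stood for its role. Listed non-members are named where they passed 1.5-fold, and some others for comparison. Members and lists were chosen with earlier results of these data known. Steps were tested on simulated data. The number of arrays limits the precision. Later steps used Python 3.11.15, pandas 2.3.3, numpy 2.4.6, scipy 1.17.1 and matplotlib 3.10.9.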

Additional observations from a re-analysis of the deposited data

How the results depend on the processing

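Each value is a ratio of ALDH+ to ALDH- cells within the same spots, so the comparison was already paired. None of the values comes from a test, because each population was 1 sample. No member passed 1.5-fold higher in the main setting, against 1 with an offset of 10 and with median centring and 2 in the ratio of the software and in the joined table. One array alone gave 0 to 2. The count of 1 lower became 2 in the ratio of the software and in the joined table, where 9.17% of all genes were lower by 1.5-fold against 4.6% in the main setting, and 0 at 2-fold on the mean or with 1.5-fold required on each array. On one array alone it was 1, for BCL2 on the Cy3 array and RIPK1 on the Cy5 array. The median of the members (0.03) was 0.18 with median centring, 0.076 with the mean of all measured probes and 0.024 to 0.069 on one array. The BH3-only median (0.28) was 0.31 with an offset of 10, 0.32 in the ratio of the software and in the joined table, 0.35 with median centring, 0.22 without the filter on dim probes and 0.14 to 0.17 on one array. The effector median (0.34) was 0.43 with median centring and 0.075 to 0.20 on one array, the antiapoptotic median (-0.23) -0.11 with median centring and -0.21 to -0.12 on one array. The caspase median (0.13) was 0.027 without the filter, and the death receptor median (-0.02) 0.12 with median centring. The median of the released mitochondrial proteins (-0.04) was -0.064 when the background was not corrected, -0.016 with an offset of 10, -0.024 in the ratio of the software and in the joined table, -0.21 without the filter and -0.033 to -0.011 on one array. It turned to 0.20 with median centring and to 0.015 with the mean of all measured probes. Of 444 values of single members, 5 turned away from a sign that both arrays shared: BCL2L12 (0.23), DIABLO (0.20) and TRAF2 (0.11) with median centring, and BCL2L12 (0.049) and CASP10 (0.017) with the mean of all measured probes. Many of the 444 values could not turn, so their number is no measure of stability. Changes of the filter left every member as it was, and the joined table repeated the ratio of the software. One array alone cannot leave a sign that both arrays share, and the mean of probes changes nothing for a gene with 1 measured probe. BIRC2, CASP2 and TRADD, whose arrays differed in sign, took either sign. Another 41 values moved by over 1 SD. Median centring leaves any trend with intensity in place, and its median over all genes was 0.07. The cause of the shifts was not tested. Taking the background from negative control spots was an alternative chosen after seeing the data. FAS and HRK were among the dim members, and whether depth of signal limits their values was not tested.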

Other observations

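Among p53 target genes outside the apoptosis lists, 17 of 20 names with a probe were measured, with a median log2 ratio of 0.15. Of these, 9 were higher in ALDH+ cells on both arrays and 4 were lower on both, against 33.6% and 36.2% of all genes. At their brightest probes, the 4 lower genes were GDF15 at -0.42 ± 0.18, XPC at -0.18 ± 0.14, MDM2 at -0.11 ± 0.08 and RRM2B at -0.05 ± 0.00. On the higher side, 2 genes passed 1.5-fold. BTG2, an antiproliferative gene, gave 0.54 and 0.80, with a mean of 0.67 ± 0.18 or 1.59-fold higher. PERP, a membrane protein of desmosomes, gave 0.56 and 0.75, with a mean of 0.65 ± 0.13 or 1.57-fold higher. TNFSF10 (TRAIL), a ligand of death receptors, was at 0.04 ± 0.11 at its brightest probe. Its other measured probe, printed in 10 spots and chosen for mention after its values were seen, gave 0.86 and 0.33, with a mean of 0.59 ± 0.38. PAX8, a lineage marker of ovarian epithelium, was the only epithelial marker of the list past 1.5-fold, at -0.74 ± 0.14 or 1.67-fold lower in ALDH+ cells.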
